A study of Mus musculus with 12 samples.

Results

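Genes of inflammatory mediators were followed in mouse rib chondrocytes, 10 of the 17922 genes in the expression table: Pla2g4a, Ptgs2 and Ptges of prostaglandin synthesis, Serpina3n and Lcn2 among the acute-phase proteins, the cytokine Il6, and the chemokines Cxcl1, Ccl2, Cxcl12 and Cxcl14. They were picked by symbol with the knockout results of these samples known, so they were selected on the values of the knockout comparisons. Those comparisons are therefore given for these genes as descriptions: where a member is said to be called or not called, the word gives its place in the fit over all genes, and supports nothing about the members. The same holds for the difference between both knockout effects. The comparison of both control groups is tested, but it shares the control samples of the knockout comparisons. Its p-values are therefore not independent of the choice.

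The study asked what follows in skeletal development from reduced glycolysis and from reduced acetyl-CoA in the cytoplasm. Primary rib chondrocytes were taken at postnatal day 5 from Col2-Cre; Ldha fl/fl; Ldhb+/- mice, which lack the lactate dehydrogenase A gene and carry 1 deleted Ldhb allele, and at E18.5 from Col2-Cre; Acly fl/fl mice, which lack ATP citrate lyase. Each knockout had controls from its own litters, with 3 samples in each of the 4 groups, and the alleles and Cre status of the controls are not given in the labels. Col2-Cre uses the promoter of the type II collagen gene, so the deletion is directed to cartilage cells and other cells of the preparation may keep the gene. All mice were of a C57BL/6-dominant mixed strain. All cells were released with collagenase, cultured in serum-containing medium overnight and lysed for poly(A) RNA sequencing. The labels do not say how many mice gave 1 sample, and the p-values measure only the spread between these samples, which may be technical.

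Prostaglandin E2 is made in 3 steps. Cytosolic phospholipase A2 (Pla2g4a) frees arachidonic acid from membranes, cyclooxygenase-2 (Ptgs2) converts it to prostaglandin H2, and microsomal prostaglandin E synthase (Ptges) makes prostaglandin E2. In cartilage, interleukin-1 is known to raise Ptgs2, Il6, Lcn2 and neutrophil-attracting chemokines through NF-kB and C/EBP factors. Acute-phase proteins such as lipocalin-2 and serpin A3N are released by many cell types under cytokine stimulation, and chemokines draw leukocytes or, for Cxcl12, retain blood progenitors.

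Promoter sequences from RefSeq (build GRCm38.p6) were matched to 9 of the 10 genes by symbol. The submitters' processing notes name mm9, so the coordinates below belong to the RefSeq table and not to the deposited values. The 250 bases before the transcription start are shown for the 4 genes that were called in a knockout comparison (Ptgs2, Pla2g4a, Serpina3n and Cxcl14) and for Cxcl1 and Il6. Cxcl1 and Il6 varied between samples together with Lcn2 and Ccl2, and less closely with each other (r 0.61). The window of Lcn2 held none of the motifs below, and Ccl2 had no window. Any link of motifs and covariation was not tested. Capitals mark matches, on either strand, to an NF-kB type motif (GGGNNTTTC), a C/EBP palindrome (TTGCGCAA), an AP-1 site (TGACTCA) or a cyclic AMP response element (TGACGTCA). The windows lie on chromosome 1 at chr1:150099781-150100030 (plus strand) and chr1:149961291-149961540 (minus strand, the first of 2 entries), on chromosome 12 at chr12:104406458-104406707 (plus), on chromosome 13 at chr13:56296552-56296801 (minus), and on chromosome 5 at chr5:90890995-90891244 (plus) and chr5:30012864-30013113 (plus).
Ptgs2: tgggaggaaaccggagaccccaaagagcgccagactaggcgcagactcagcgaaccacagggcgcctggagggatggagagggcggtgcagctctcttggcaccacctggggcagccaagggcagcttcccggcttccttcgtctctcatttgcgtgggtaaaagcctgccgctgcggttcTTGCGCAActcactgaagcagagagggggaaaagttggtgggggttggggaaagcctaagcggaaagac
Pla2g4a: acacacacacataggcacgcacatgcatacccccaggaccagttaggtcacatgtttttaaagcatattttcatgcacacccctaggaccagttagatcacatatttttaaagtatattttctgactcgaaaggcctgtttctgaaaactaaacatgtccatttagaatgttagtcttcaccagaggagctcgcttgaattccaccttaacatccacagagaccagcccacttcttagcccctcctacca
Serpina3n: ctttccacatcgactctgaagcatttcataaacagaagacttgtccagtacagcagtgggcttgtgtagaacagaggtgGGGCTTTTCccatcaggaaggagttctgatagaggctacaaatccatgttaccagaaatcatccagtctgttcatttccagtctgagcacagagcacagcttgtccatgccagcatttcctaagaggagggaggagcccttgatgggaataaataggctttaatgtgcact
Cxcl14: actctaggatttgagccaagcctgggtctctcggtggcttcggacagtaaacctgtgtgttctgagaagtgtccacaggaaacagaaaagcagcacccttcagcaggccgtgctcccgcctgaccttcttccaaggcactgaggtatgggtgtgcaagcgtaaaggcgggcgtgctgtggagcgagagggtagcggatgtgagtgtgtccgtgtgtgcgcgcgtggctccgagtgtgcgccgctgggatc
Cxcl1: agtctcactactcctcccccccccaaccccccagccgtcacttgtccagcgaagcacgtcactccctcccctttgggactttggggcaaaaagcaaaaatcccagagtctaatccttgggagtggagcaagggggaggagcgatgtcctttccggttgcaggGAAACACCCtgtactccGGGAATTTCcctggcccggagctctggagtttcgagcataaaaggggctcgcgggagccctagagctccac
Il6: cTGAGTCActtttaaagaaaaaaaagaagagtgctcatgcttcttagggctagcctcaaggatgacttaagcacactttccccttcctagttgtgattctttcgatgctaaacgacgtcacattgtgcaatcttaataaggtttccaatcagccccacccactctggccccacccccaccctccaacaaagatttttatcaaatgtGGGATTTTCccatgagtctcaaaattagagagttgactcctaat

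The Ptgs2 window held the C/EBP palindrome, TTGCGCAA, beginning 69 bases before the start, a motif found in 0.17% of the 27025 promoter windows searched. NF-kB type matches stood in Serpina3n (GGGCTTTTC, beginning 171 bases before the start), in Il6 (GGGATTTTC, 44 bases) and at a pair of places in Cxcl1 (GAAACACCC on the minus strand at 88 bases and GGGAATTTC at 71 bases), against 3.79% of all windows. The Il6 window also held an AP-1 site on the minus strand at 249 bases, a motif of 4.43% of windows. No window of the 9 genes held the cyclic AMP response element, which 1.62% of all windows had, and those of Pla2g4a, Ptges, Lcn2, Cxcl12 and Cxcl14 held none of the 4 motifs. These matches describe the letters only. In the RefSeq order of genes Pla2g4a and Ptgs2 are neighbours on chromosome 1 with 0 protein-coding genes between them.

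Depth was even, at 26362407 to 28154143 expected counts per sample, so that 3 counts were worth 0.104 to 0.118 counts per 1000000 (CPM), a floor for counting error only. Ldha was at 83.9 to 97.6 CPM in LDH knockouts against 838 to 939 CPM in their controls, and Acly at 48.3 to 82.5 CPM in Acly knockouts against 182 to 192 CPM. Ldhb was at 15.1 to 17.3 CPM in LDH knockouts and at 12 to 13 CPM in their controls, with no overlap and a log2 fold change of 0.37 (SE 0.11, adjusted p 0.115). It was thus not lower in the samples labelled Ldhb+/-, whose deleted allele is known from the labels alone, and the Ldhb genotype of the controls is not given. Chondrocyte markers were abundant in every sample, with a summed level of 9204 to 30796 CPM over 12 genes, although Matn1 was at or below 0.275 CPM in the LDH set. In tissue preparations of this kind fewer cells of a type and less RNA per cell cannot be told apart. Signal summed over 4 Y-linked genes reached 93 and 102 CPM in the first and second LDH control, but 0.59 CPM in the third and at most 0.0367 CPM in the LDH knockouts, so Y-linked signal and genotype partly coincide in the LDH set. In the Acly set it was high in 1 control and 2 knockout samples. A gene was counted as called when its adjusted p in edgeR's quasi-likelihood test was under 0.05.

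In the LDH knockout Serpina3n was higher and Ptgs2 and Pla2g4a were lower, and these 3 of the 10 genes were among those called. In the Acly knockout 1 of the 10 was among those called, Cxcl14, which was lower. Over all genes tested 2.49% were called in the LDH comparison (1.43% higher, 1.07% lower) and 0.136% in the Acly comparison (0.0573% higher, 0.0787% lower). Since the 10 genes were selected on these comparisons, which of them were called was known in their choice, and nothing is read from the counts. The median log2 fold change of the 10 genes was 0.19 in the LDH and -0.16 in the Acly knockout, beside 0.01 and -0.00 over all genes tested.

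**Figure D1:**
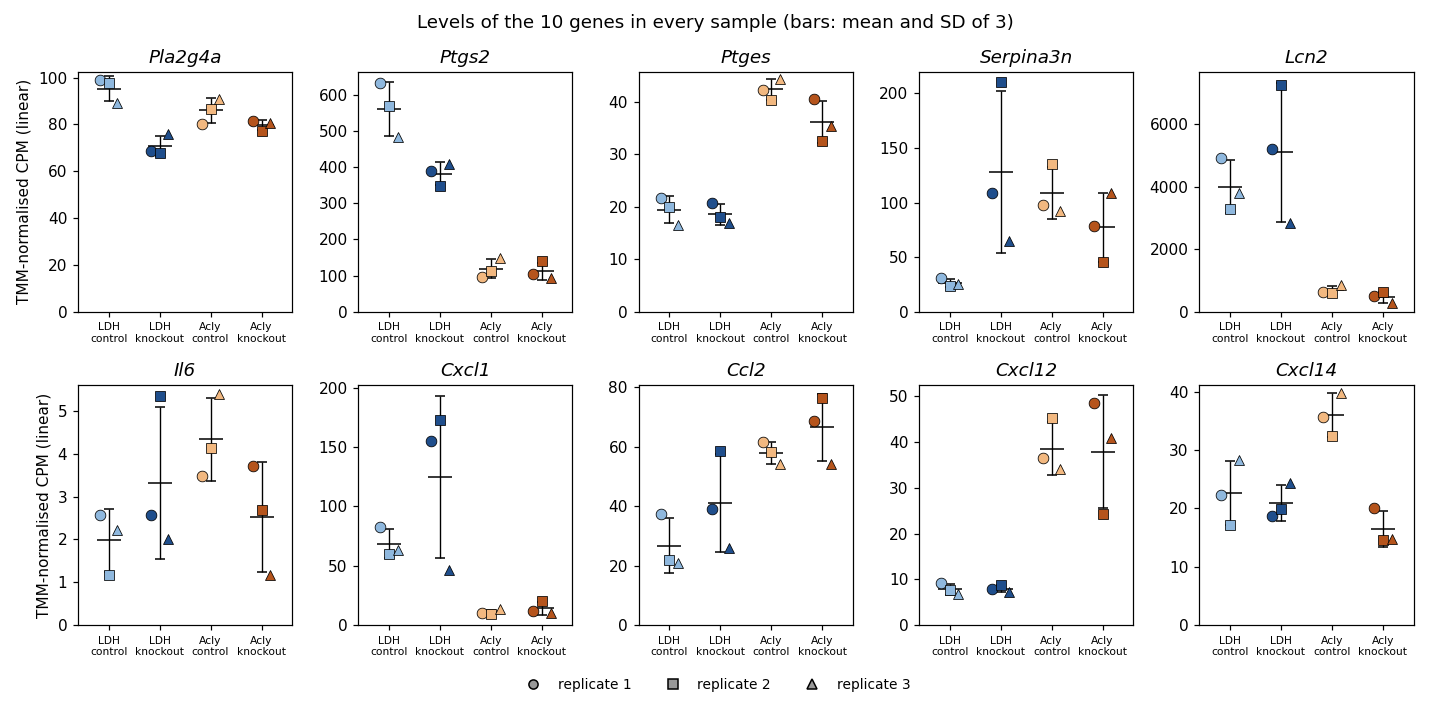
TMM-normalised CPM of each gene on a linear axis in the 3 samples of each group, with replicate numbers as symbols and the mean and SD as bars. Serpina3n is between 65.1 and 210 CPM in the LDH knockouts and at most 30.5 CPM in their controls, Ptgs2 is at most 149 CPM in the Acly set, and Cxcl14 is between 14.5 and 20.0 CPM in the Acly knockouts, below all Acly controls.

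The first 2 enzymes of prostaglandin synthesis were lower in the LDH knockout and the terminal synthase was not called. Ptgs2 was at 633, 569 and 484 CPM in LDH controls and at 389, 347 and 409 CPM in LDH knockouts, a log2 fold change of -0.56 (SE 0.11), or 67.9% of control. Every knockout sample lay below every control sample. Pla2g4a was at 99.1, 97.8 and 89.1 CPM in LDH controls and at 68.8, 67.7 and 75.8 CPM in knockouts, a log2 fold change of -0.43 (SE 0.08), or 74.2% of control, again with no overlap. Without overlap between groups were 3 of the 10 genes in the LDH and 1 of the 10 in the Acly comparison, beside 24.3% and 22.1% of all genes tested. Ptges was at 21.7, 19.9 and 16.7 CPM in LDH controls and at 20.8, 18.0 and 16.9 CPM in knockouts, so that the groups overlapped throughout (log2 fold change -0.07, SE 0.13).

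The place of Ptgs2 and Pla2g4a among the called genes depended on the settings. Ptgs2 was called under 8 of 14 alternatives and Pla2g4a under 9 of 14, with the same sign in each. With the Y-linked signal as a covariate, which partly coincides with genotype, the log2 fold changes were -0.24 for Ptgs2 and -0.28 for Pla2g4a, and neither was called. LDH control replicate 3, the control with little Y-linked signal, was the lowest of the controls in both genes, at 484 and 89.1 CPM. What sex contributes to these values cannot be told apart from genotype with these samples. Leaving out LDH knockout replicate 1 or 2 or LDH control replicate 1 or 2 ended both calls, with log2 fold changes of -0.57 to -0.47 for Ptgs2 and -0.42 to -0.40 for Pla2g4a. An antisense gene, Ptgs2os, lies beside Ptgs2 in RefSeq, and use of strand in the counting is not given in the sources used here, so reads of both cannot be told apart.

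In the Acly knockout all 3 enzymes were uncalled. Ptgs2 was at 95.5, 113 and 149 CPM in Acly controls and at 105, 139 and 93.7 CPM in knockouts, and Pla2g4a at 80.2, 86.8 and 91.1 CPM and at 81.3, 77.2 and 80.6 CPM. Both sets of values overlapped, with log2 fold changes of -0.07 (SE 0.19) and -0.10 (SE 0.09). Ptges was at 42.3, 40.4 and 44.3 CPM in Acly controls and at 40.5, 32.5 and 35.5 CPM in knockouts, a log2 fold change of -0.21 (SE 0.10), with the highest knockout sample level with the lowest control. Of the other genes that make prostaglandins, 0 of 10 tested were called in the LDH and 0 of 11 in the Acly knockout, and of those for prostaglandin receptors, transport and breakdown 0 of 11 and 0 of 12. In the latter list the gene of lowest p in the LDH knockout was Abcc4, a transporter that exports prostaglandins, at 191, 194 and 162 CPM in controls and 142, 149 and 146 CPM in knockouts.

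Serpina3n, a secreted serine protease inhibitor of the acute phase, was the member that differed most in the LDH knockout. It was at 30.5, 23.5 and 25.5 CPM in LDH controls and at 109, 210 and 65.1 CPM in knockouts, a log2 fold change of 2.27 (SE 0.35), or 4.84-fold. The lowest knockout, replicate 3, was above the highest control, and the highest knockout, replicate 2, was 3.23 times the lowest. The gene was called under 12 of 14 alternatives. It was not called with the Y-linked covariate (2.26) or without LDH control replicate 3 (2.25), where the size was nearly as before. In the Acly set Serpina3n was at 97.9, 136 and 92.1 CPM in controls and at 78.4, 45.5 and 108 CPM in knockouts, a log2 fold change of -0.48 (SE 0.27) with overlapping groups. Serpina3n is one of a cluster of closely related serpin genes, so its counts may include reads of its copies.

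Fat-cell markers were, like Serpina3n, higher in the LDH knockouts than in their controls. Of 10 adipocyte markers 8 were tested, and 7 of these were called higher in the LDH knockout, beside 1.43% of all genes tested. The sum of the 10 markers was 33.7 to 49.1 CPM in LDH controls and 71.5 to 136 CPM in knockouts. Without Lpl, a lipase gene left out after its values were seen, it was 2.58 to 3.27 CPM and 21.0 to 85.5 CPM. Within the LDH controls the orders differed, as replicate 2 had the highest sum over the 10 markers (49.1 CPM) but the lowest Serpina3n (23.5 CPM). Without Lpl the sums were 3.09, 2.58 and 3.27 CPM in control replicates 1 to 3, where replicate 2 was lowest, as in Serpina3n. The order of the knockout samples was that of Serpina3n, with replicate 2 highest and replicate 3 lowest. This order was not particular to fat-cell markers: 6 of the 10 marker lists had it, the others being those of chondrocytes (23063, 30796 and 20486 CPM in replicates 1 to 3), macrophages and monocytes (153, 240 and 128 CPM), neutrophils (6.15, 11.4 and 3.6 CPM), fibroblasts (750, 864 and 675 CPM) and erythroid cells (15.5, 37.3 and 12.8 CPM). Leptin (Lep) was at or below 3 counts in every sample. In the Acly set the sum was 237 to 276 CPM in controls and 194 to 444 CPM in knockouts, where 0 of 8 markers were called, and the order was not that of Serpina3n. The part of any of these markers in the difference of Serpina3n was not tested. Of chondrocyte markers 7 of 11 were called higher in the LDH knockout, beside 1.43% of all genes tested. Of osteoblast markers 2 of 6 were called lower, beside 1.07%. With the Y-linked covariate only 3 of all genes were called in the LDH comparison. Of macrophage and monocyte markers 0 of 14 were called in either knockout.

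**Figure D2:**
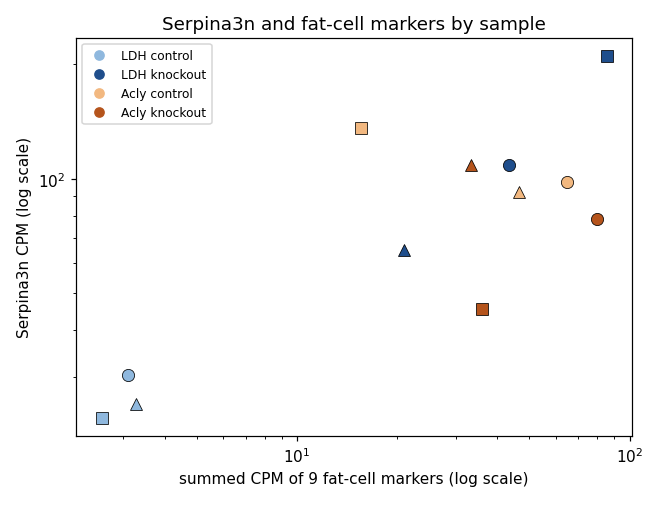
Serpina3n (CPM) against the summed CPM of the adipocyte markers other than Lpl, both on log axes, for each of the 12 samples, with groups in colour and replicate numbers as symbols. The 3 LDH controls stand at the lower left with marker sums of 2.58 to 3.27 CPM, and the 3 LDH knockouts stand above and to the right of them.

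Lcn2, which encodes the iron-carrier-binding protein lipocalin-2, was the most abundant of the 10 genes. It was at 4925, 3272 and 3788 CPM in LDH controls and at 5204, 7259 and 2825 CPM in knockouts. Both the highest and the lowest of these 6 values were knockouts, and the log2 fold change of 0.35 (SE 0.28) was not called. Lcn2 was at 641, 603 and 842 CPM in Acly controls and at 487, 616 and 269 CPM in Acly knockouts, with a log2 fold change of -0.58 (SE 0.27) that was not called. By deposited TPM, a level per transcript length, Lcn2 ranked between first and twelfth of all genes in each LDH sample and took 0.647% to 1.6% of the total, against 0.0667% to 0.216% in the Acly samples.

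Acute-phase genes outside the 10 were higher with the LDH knockout in 3 of the 10 tested, against 1.43% of all genes, and none was lower. The list was written with earlier results of these samples known, and its median log2 fold change was 1.28, beside 0.01 over all genes tested. Lrg1, a secreted leucine-rich glycoprotein, was at 0.447, 0.224 and 0.592 CPM in LDH controls and 11.4, 16.3 and 5.0 CPM in knockouts, a log2 fold change of 4.68 (SE 0.49; adjusted p 0.00316). C4b, complement component 4, was at 24.0, 13.3 and 22.7 CPM in controls and 67.8, 108 and 59.7 CPM in knockouts (1.97, SE 0.26; adjusted p 0.00731). Ptx3, a pattern-recognition pentraxin, was at 297, 231 and 292 CPM in controls and 495, 561 and 397 CPM in knockouts (0.83, SE 0.14; adjusted p 0.0196). In all 3 genes, as in Serpina3n, knockout replicate 2 was highest and replicate 3 lowest, the order that the 6 marker lists above also had. None of the 3 was called with the Y-linked covariate, at 3.63, 1.62 and 0.63, and Ptx3 also lost its call without LDH knockout replicate 1 or 2 or control replicate 3, at 0.71 to 0.88, and in the fit of all 12 samples. Hp, Saa3, Steap4 and C3, picked after their values were seen, had log2 fold changes of 1.66, 1.56, 2.10 and 1.01 and were not called, with adjusted p of 0.0714 to 0.214. In the Acly knockout 0 of 12 genes of this list were called.

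Il6, the gene of interleukin-6, was the scarcest of the 10, at 31 to 152 counts a sample. It was at 2.57, 1.16 and 2.21 CPM in LDH controls and at 2.58, 5.35 and 2.02 CPM in knockouts, where 1 sample alone lay clearly above the controls (log2 fold change 0.74, SE 0.40). In Acly controls it was at 3.48, 4.14 and 5.40 CPM and in knockouts at 3.72, 2.69 and 1.17 CPM, a log2 fold change of -0.77 (SE 0.37) with 1 knockout sample inside the range of the controls. Neither was called. Among the other 16 genes of the interleukin-6 family and its receptors, 0 of 15 tested were called in the LDH and 0 of 16 in the Acly knockout. In the LDH knockout Il6ra, the receptor chain that binds interleukin-6, had the lowest p, at 7.6, 8.3 and 8.05 CPM in controls and 11.5, 12.1 and 11.2 CPM in knockouts.

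Among the chemokines Cxcl14 was the one called, in the Acly knockout. This chemokine of epithelia and connective tissue was at 35.7, 32.3 and 39.8 CPM in Acly controls and at 20.0, 14.5 and 14.8 CPM in knockouts, a log2 fold change of -1.11 (SE 0.14), or 46.2% of control. The highest knockout lay well below the lowest control. In the LDH set it was at 22.3, 17.2 and 28.3 CPM in controls and 18.6, 19.8 and 24.4 CPM in knockouts, with overlap (-0.11, SE 0.18). Cxcl14 kept its sign under 14 of 14 alternatives and was called under 8 of them. It lost its call without Acly knockout replicate 3 or any 1 of the 3 Acly controls, at -1.18 to -1.03, and with total-count scaling at -1.16. In Acly knockout replicate 2 the fibroblast and perichondrium markers summed to 1338 CPM, against 3034 and 3055 CPM in the other knockouts and 3195 to 3817 CPM in the controls. Cxcl14 was at 20.0, 14.5 and 14.8 CPM in knockout replicates 1 to 3, which had 3034, 1338 and 3055 CPM of these markers. Their part in the level of Cxcl14 was not tested.

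Cxcl1 and Ccl2, which draw neutrophils and monocytes, were more scattered in the LDH knockouts than in the controls. Cxcl1 was at 82.3, 59.5 and 63.6 CPM in LDH controls and at 155, 173 and 46.2 CPM in knockouts (log2 fold change 0.87, SE 0.38). Replicates 1 and 2 of the knockout lay above all controls and replicate 3 below them, so the gene was not called, and without that replicate it was called at 1.26. Ccl2 was at 37.4, 21.7 and 20.9 CPM in LDH controls and at 39.0, 58.5 and 25.8 CPM in knockouts (0.62, SE 0.29), with overlap. In the Acly set Cxcl1 was at 10.1, 9.0 and 13 CPM in controls and at 12, 20.2 and 9.66 CPM in knockouts (0.41, SE 0.27), and Ccl2 at 61.7, 58.1 and 54.2 CPM and at 68.7, 76.5 and 54.3 CPM (0.21, SE 0.13). Both overlapped and neither was called.

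Cxcl12, a chemokine of stromal and perichondrial cells, had log2 fold changes near 0 in both knockouts, with overlapping samples. It was at 9.09, 7.74 and 6.67 CPM in LDH controls and at 7.92, 8.84 and 7.13 CPM in knockouts (log2 fold change 0.02, SE 0.16). In the Acly set it was at 36.5, 45.3 and 34.1 CPM in controls and at 48.5, 24.3 and 41.0 CPM in knockouts (-0.02, SE 0.22). The low knockout value was replicate 2, the sample that was also low in fibroblast markers; their part in it was not tested. Of other CXC and CX3C chemokines 0 of 8 and 0 of 10, of other CC chemokines 0 of 9 and 0 of 10, and of chemokine receptors 0 of 4 and 0 of 7 were called in the LDH and Acly knockouts.

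**Figure D3:**
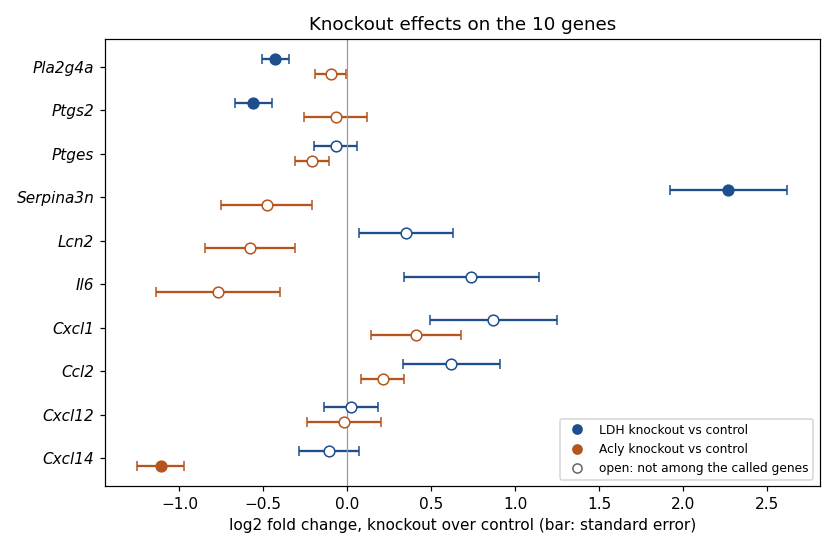
Log2 fold change of each gene in the LDH (blue) and Acly (orange) knockout against its own control, with the standard error as a bar and filled symbols for called genes. Serpina3n at 2.27, Ptgs2 at -0.56 and Pla2g4a at -0.43 are filled for LDH and Cxcl14 at -1.11 for Acly.

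The effects of both knockouts were also set against each other, by an interaction term in a fit of all 12 samples. This difference is built from the values on which the 10 genes were selected, so it is a description for them. By edgeR 0 of the 10 were called, beside 0.161% of all genes. An unadjusted p under 0.05 was found for 4, beside 1855 of all 14251 genes tested. DESeq2 called 2, beside 217 of all genes, and nothing is read from these counts. Serpina3n had the largest difference, with the LDH effect 2.76 (SE 0.51) above the Acly effect on the log2 scale, followed by Il6 at 1.52 (SE 0.61) and Cxcl14 at 1.02 (SE 0.25). Age differs between the sets, so a difference of knockouts and a difference of ages cannot be told apart here. The Y-linked covariate was not run for the difference of effects. Over the 126 tested genes of the pathway lists, C4b (2.24, adjusted p 0.0411) and Lrg1 (4.46, adjusted p 0.0498) were called, C4b under 8 and Lrg1 under 6 of 18 alternatives.

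Genes of the wider pathways were called about as often as all genes in the LDH knockout. After the 10 members were left out, 10 lists of the pathways held 149 genes. Of these 108 were tested in the LDH comparison and 3 were called, or 2.78% beside 2.49% of all genes. These were the acute-phase genes above. Without LDH knockout replicate 3, 18 list genes were called, beside 1068 of all 13509 genes tested. In the Acly comparison edgeR called 0 of 121, with 26 at an unadjusted p under 0.05, beside 2211 of all 13973 genes tested. DESeq2 called 3 list genes, beside 249 of all genes. Without Acly knockout replicate 2 edgeR called 4 list genes, beside 132 of all genes. Of NF-kB and C/EBP factors and targets 0 of 20 were called in the LDH knockout, with 17 of 20 log2 fold changes above 0 and a median of 0.25. Cebpd, a C/EBP factor of the acute-phase response, had the lowest p, at 133, 67.9 and 126 CPM in controls and 328, 372 and 152 CPM in knockouts (1.38, SE 0.33; adjusted p 0.0573), and it was called under 3 of 14 alternatives. Its knockout replicate 2 was again highest and replicate 3 lowest. Of interleukin-1 and TNF ligands and receptors 0 of 16 were called in the LDH and 0 of 17 in the Acly knockout.

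In the control cells, 9 of the 10 genes differed between the Acly set at E18.5 and the LDH set at postnatal day 5. Of all genes tested 55.0% were called in this comparison, 29.4% higher and 25.7% lower in Acly controls, so that a difference was the common case. The comparison shares its samples with both knockout comparisons, so it is not independent of the choice of the 10 genes. Age, mouse line and any batch of the libraries cannot be told apart in it. Y-linked signal also differed, at 93, 102 and 0.59 CPM in LDH controls and 0.375, 121 and 2.83 CPM in Acly controls. The Y-linked covariate was not run for this comparison. Scaling moved its balance: 53.3% of calls were higher in Acly controls with TMM and 72.4% with total counts alone, which shifted the median of all genes from 0.02 to 0.19. The 9 genes kept their directions under all scalings run.

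Lower in Acly controls were Ptgs2, Lcn2 and Cxcl1. Ptgs2 was at 119 ± 27.3 CPM (SD, n = 3) in Acly and 562 ± 74.7 CPM in LDH controls, a log2 difference of -2.24 (SE 0.18, adjusted p 7.65e-07). Lcn2 differed by -2.52 (SE 0.33, adjusted p 3.81e-05) and Cxcl1 by -2.68 (SE 0.41, adjusted p 0.000111). Every Acly control was below every LDH control in these 3 genes. With them 16 of 20 NF-kB and C/EBP factors and targets were lower in Acly controls and 1 was higher, with a median of -0.85 beside 0.02 over all genes. Icam1, an adhesion molecule, differed by -1.85 (adjusted p 3.12e-07), Nfkbiz, an inhibitor-of-kB family protein, by -1.61 (adjusted p 2.76e-05), and the exception Vcam1, another adhesion molecule, by 2.13 (adjusted p 9.96e-06). Cxcl3 and Cxcl2, neutrophil chemokines like Cxcl1, differed by -1.53 (adjusted p 0.00271) and -1.36 (adjusted p 0.00803). Cxcl2 is named as the gene of lowest p of its list in the Acly knockout, where it was not called (-1.10, SE 0.34, adjusted p 0.245).

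Higher in Acly controls were Cxcl12, Serpina3n, Il6, Ptges, Ccl2 and Cxcl14. Cxcl12 differed most, at 38.6 ± 5.87 CPM (SD, n = 3) in Acly and 7.83 ± 1.21 CPM in LDH controls, a log2 difference of 2.30 (SE 0.22, adjusted p 2.83e-06). Serpina3n differed by 2.03 (SE 0.37, adjusted p 0.000488), Ptges by 1.12 (SE 0.12, adjusted p 5.68e-06), Ccl2 by 1.12 (SE 0.26, adjusted p 0.00286) and Cxcl14 by 0.67 (SE 0.18, adjusted p 0.0057). Il6 was the weakest, at 1.13 (SE 0.43, adjusted p 0.041), and lost its call without LDH control replicate 2 or 3 or Acly control replicate 2 or 3, at 0.82 to 1.21. Pla2g4a was not called, with a log2 difference of -0.15 (SE 0.08, adjusted p 0.114) and an interval of 2 SE on either side from -0.30 to 0.00.

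Levels of cell-type markers differed between both control groups as well, where fewer cells of a type and less RNA per cell cannot be told apart. Fibroblast and perichondrium markers were higher in Acly controls in 10 of 10 genes, with sums of 3195 to 3817 CPM against 599 to 1111 CPM, and macrophage and monocyte markers in 10 of 14 with 2 lower, with sums of 219 to 250 CPM against 121 to 188 CPM. Endothelial markers summed to 101 to 120 CPM in Acly controls and to 13.5 to 21.0 CPM over the 6 LDH samples, and neutrophil markers to 3.52 to 5.73 CPM against 4.30 to 7.30 CPM. Their part in the levels of Cxcl12, Ccl2 and the other genes was not tested. Receptors of prostaglandins were also among the genes higher in Acly controls, with Ptgfr at 3.08 (adjusted p 2.42e-05) and Ptgir at 2.59 (adjusted p 3.53e-07), while the prostaglandin transporter Slco2a1 was lower at -2.58 (adjusted p 3.51e-05). Cxcr4, the receptor of Cxcl12, was higher at 1.65 (adjusted p 3.57e-05). Lif, a cytokine of the interleukin-6 family, was lower at -2.10 (adjusted p 1.49e-06). Of all 126 list genes tested 78 were called, 42 higher and 36 lower, or 61.9% against 55.0% of all genes.

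**Figure D4:**
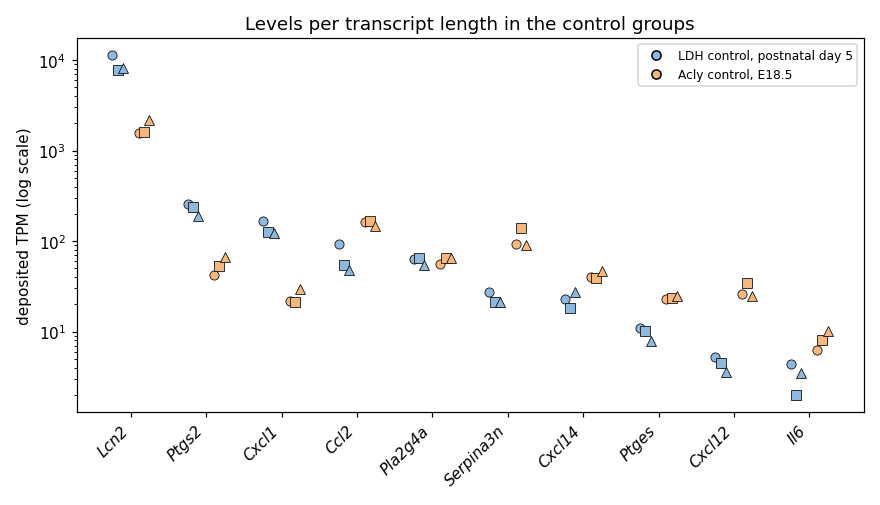
Deposited TPM of the 10 genes on a log axis in the 3 LDH controls (blue, postnatal day 5) and the 3 Acly controls (orange, E18.5), ordered by mean level in LDH controls. Lcn2 leads both groups, Ptgs2 and Cxcl1 follow it in LDH controls and lower in Acly controls, and Cxcl12 is higher there.

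The order of the 10 genes by deposited TPM, which allows levels of different genes to be compared, changed between the sets. In LDH controls Lcn2 led with a mean of 9142 TPM (SD 1979, n = 3), followed by Ptgs2 at 228 TPM, Cxcl1 at 139 TPM, Ccl2 at 65.2 TPM and Pla2g4a at 61.0 TPM. Serpina3n at 23.4 TPM, Cxcl14 at 23.0 TPM, Ptges at 9.68 TPM, Cxcl12 at 4.41 TPM and Il6 at 3.29 TPM closed the order. Neighbours whose samples overlapped were Ccl2 and Pla2g4a, Serpina3n and Cxcl14, and Cxcl12 and Il6. In Acly controls Lcn2 led again with 1784 TPM (SD 325, n = 3), but Ccl2 at 158 TPM and Serpina3n at 108 TPM came next, ahead of Pla2g4a at 61.6 TPM and Ptgs2 at 54.2 TPM. Cxcl14 at 42.0 TPM, Cxcl12 at 28.4 TPM, Cxcl1 at 24.2 TPM, Ptges at 23.6 TPM and Il6 at 8.14 TPM followed. Overlaps between neighbours joined Pla2g4a, Ptgs2 and Cxcl14, and also Cxcl12, Cxcl1 and Ptges.

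In the LDH knockouts Cxcl1 at 246 TPM stood above Ptgs2 at 152 TPM by the mean, with overlapping samples, and Serpina3n moved from the sixth to the fourth place at 110 TPM. In the Acly knockouts Cxcl14 moved from the sixth to the ninth place at 18.1 TPM, and its samples overlapped those of Ptges.

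Within groups, 4 of the genes varied together. After the group mean of log2 CPM was removed, Lcn2 correlated over the 12 samples with Cxcl1 (Pearson's r 0.91), Il6 (0.85) and Ccl2 (0.83), and Cxcl1 with Ccl2 (0.78). These values describe 12 samples in 4 groups that share library and culture, and no test was made. In the LDH knockouts replicate 2 was highest and replicate 3 lowest in all 4 of these genes, in the LDH controls replicate 1 was highest in all 4, and in the Acly knockouts replicate 3 was lowest in all 4. Ptgs2 and Pla2g4a, the neighbouring genes, correlated with each other at 0.55 over 12 samples and with Lcn2 at 0.37 and -0.32. These values also differed by set. Over the 6 LDH and the 6 Acly samples the r of both genes was 0.87 and 0.41. For Ptgs2 it was -0.27 and 0.79 with Lcn2, and -0.28 and 0.85 with Cxcl1. For Pla2g4a with Lcn2 it was -0.57 and 0.01. Serpina3n went with the 4 genes above in opposite ways in both sets, which the values over 12 samples hide. Its r with Lcn2 was 0.96 over the 6 LDH samples and -0.89 over the 6 Acly samples (0.19 over all 12), and with Cxcl1 it was 0.87 and -0.96 (0.30). With Cxcl12 it was 0.68 and 0.84 (0.71).

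**Figure D5:**
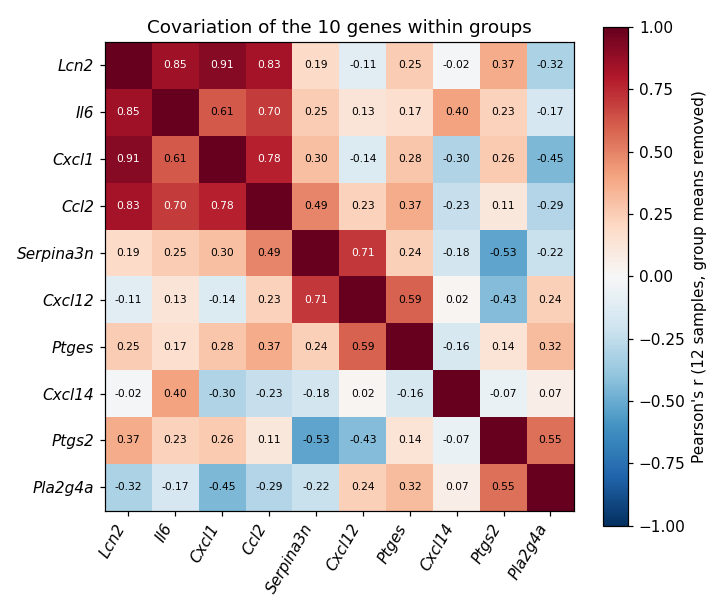
Pearson's r between the 10 genes over 12 samples, from log2 CPM with each group's mean removed, on a colour scale from -1 to 1. Lcn2, Il6, Cxcl1 and Ccl2 form the block at the upper left, with r from 0.61 to 0.91.

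Across the 12 samples with group means kept, the 2 genes most like a member were sought among 14206 genes past a filter on low counts, for the 9 members with a mean of at least 5 CPM. For Ptgs2 these were Nek9 and Dnaja4 (Pearson's r 0.991 each), for Lcn2 Chil1 (0.988) and Vnn3 (0.986), for Cxcl1 Relb (0.979) and Stx6 (0.978), and for Cxcl12 Fbn2 and Pclaf (0.997 each). Ptges was nearest to Trim30d and Clec11a (0.987 each), Pla2g4a to Arfgap3 (0.953) and Tmem39a (0.936), Ccl2 to Pirb (0.952) and Arhgap25 (0.945), Serpina3n to Pdzd2 (0.947) and Spidr (0.94), and Cxcl14 to Aldoc (0.94) and Amer2 (0.899). None of these was another of the 10 genes. Where the levels of a member differ between both sets, r over the 12 samples includes that gap. Amer2 was at 4.38 to 12.5 CPM over the 6 LDH samples, 15.8 to 20.2 CPM in Acly controls and 4.28 to 5.31 CPM in Acly knockouts.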

How the data were processed

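RNA-seq was done on 12 samples of mouse rib chondrocytes in 4 groups of 3. The authors deposited, per the file headers, expected counts, FPKM and TPM per gene and sample in 1 table of 17922 genes. The submitters' processing notes name HISAT2 2.0.4 and mm9. The counting tool, its use of strand and its treatment of near-identical genes are not given in the sources used here. Between 8.29% and 9.13% of the genes above 0 in a sample had a deposited expected count that was not whole. No molecular identifiers are named per the labels' protocols.

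From these files, rounded expected counts entered edgeR 4.0.16 under R 4.3.3 (TMM scaling, filterByExpr, two-sided quasi-likelihood F tests, Benjamini-Hochberg adjustment over all genes tested, threshold 0.05). Each knockout was fitted with its own control in 6 samples. The difference of the knockout effects and the comparison of the controls came from a fit of all 12 samples. CPM were TMM-scaled over the 12 samples, and TPM served for levels between genes. A standard error is the log2 fold change divided by the square root of F. The edgeR test was also run on simulated counts. These had the same spread setting for all genes and no shifts between samples, so nothing is read from that run for the deposited data.

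Alternatives were RLE scaling, total counts without scaling, no filter, DESeq2 1.42.0, limma 3.58.1 on log2(FPKM + 0.1), a fit of all 12 samples, a Y-linked covariate from 4 genes, the replicate number as a block, and leaving out each sample. The Y-linked covariate and the fit of all 12 samples were run as alternatives for the knockout comparisons only. The replicate block was not run for the comparison of the controls. The 10 genes, the gene lists and the tests were chosen with earlier results of these data known. The text names the 10 genes, the deleted genes, list genes past the threshold or else of lowest p in a knockout (at most 6 a list), the 3 list genes of largest difference between controls past the threshold with at least 1 CPM, and the 2 genes most like each member with at least 5 CPM. Of these, the list genes that illustrate a group are printed. Genes named outside this rule are said to be so. Motifs were searched in the RefSeq promoter table. Protein sequences were not used here.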

Additional observations from a re-analysis of the deposited data

Results flagged for a closer look

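Lrg1 and C4b, acute-phase genes outside the 10, differed in their response to the knockouts by the interaction term in edgeR's fit of all 12 samples. The LDH effect exceeded the Acly effect by 4.46 on the log2 scale for Lrg1 (adjusted p 0.0498; adjusted p 0.000641 to 0.17 over 18 alternatives). For C4b it did so by 2.24 (adjusted p 0.0411; 0.00076 to 0.17 over 18 alternatives). The Y-linked covariate was not among these 18 alternatives, and in the LDH comparison neither gene was called with it. Both genes were higher in 3 of 3 LDH knockouts than in every LDH control and overlapped between the groups in the Acly set. C4b has a close copy in the genome, and its reads may be shared with it.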

How the results depend on the processing

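No gene of the 10 reversed a called direction under any alternative. In the LDH knockout 332 genes were called, 888 with DESeq2 and 3 with the Y-linked covariate (1781 at an unadjusted p under 0.05), and 95 (without control replicate 3) to 1068 (without knockout replicate 3) when 1 sample was left out. The 3 called among the 10 became 0 with that covariate and 1 to 4 without 1 sample (4 without knockout replicate 3, 2 without control replicate 3, otherwise 1), and the 3 called among list genes became 5 without the filter, 8 with DESeq2, 0 with the covariate and 2 to 18 without 1 sample. In the Acly knockout 19 genes were called (8 higher, 11 lower), 11 without scaling (3 higher, 8 lower), 32 without the filter, 249 with DESeq2, 31 in the fit of all 12 samples (4 higher, 27 lower), 6 with the covariate, and 0 (without control replicate 1 or 3) to 132 (without knockout replicate 2) without 1 sample. With limma on FPKM the split was 6 higher and 13 lower. The 1 called among the 10 became 0 without scaling and 0 to 1 without 1 sample. The 0 list genes became 3 with DESeq2 and 0 to 4. For the difference of effects 23 genes were called, 217 with DESeq2, and 5 (without Acly control replicate 3) to 143 (without LDH knockout replicate 3). The 0 among the 10 became 1 without the filter, 2 with DESeq2 and 0 to 1. The 2 list genes became 1 with RLE, 4 with DESeq2, 1 with limma on FPKM and 0 to 9. The control comparison gave 6705 to 7954 calls, against 7844. Where 1 sample was left out, fewer samples were fitted, and otherwise the cause was not tested.

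Knockout and control samples share replicate numbers in the labels, but samples with the same number did not deviate together: the correlation of their deviations was 0.0485, -0.131 and -0.0151 in the LDH set and 0.0155, -0.188 and -0.2 in the Acly set. Whether samples of the same number shared a litter or a preparation cannot be told from these correlations. With the replicate block 362 genes were called in the LDH knockout, with 3 of the 10, and 8 in the Acly knockout (2 higher, 6 lower), with 0 of the 10: Cxcl14 stood at -1.12 and was not called. For the difference 5 genes were called, with 0 list genes.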
